A study of Mus musculus with 6 samples.

Results

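The 10 genes described here, H2-K1, H2-D1, B2m, Tap1, Tap2, Tapbp, Psmb8, Psmb9, Psmb10 and Nlrc5, make and load major histocompatibility complex (MHC) class I molecules. They were chosen by name for that function, with no measured value in the rule but with earlier results of these data known. All 10 were found among the 54232 genes of the raw count table by matching gene identifiers to GENCODE symbols. The libraries, 3 of WT and 3 of Pbrm1 cKO, were made from primary uterine stromal cells of D4 pseudopregnant mice. Pbrm1 encodes a subunit of the SWI/SNF chromatin remodeler.

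Pbrm1 cKO mice carried Pbrm1 fl/fl with 1 PR-IRES-cre allele, in which the progesterone receptor gene drives Cre, so that deletion was not limited to stroma. Controls are named WT in the labels, while the study's text has Pbrm1 fl/fl littermates without Cre in that place. Animals of both groups were 8 to 12 weeks old and untreated apart from mating. Each preparation pooled 5 to 10 uterine horns, and the cells were collected after 4 hours on the dish and 2 more hours in fresh medium. The H2 haplotype of the animals is not given in the sources used here, and its part in the counts of H2 genes was not tested. The labels do not say whether the libraries of a group came from separate pools of animals, so p-values measure the spread between these libraries. The study's own word for its RNA-seq replicates is biological.

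MHC class I molecules show peptides from inside a cell to CD8 T cells and to receptors of natural killer cells. The proteasome cuts proteins into peptides, the TAP transporter carries these into the endoplasmic reticulum, and tapasin helps to load them onto a heavy chain paired with β2-microglobulin. Interferon raises most of these genes, and the transactivator NLRC5 binds their promoters through an enhanceosome on neighbouring elements called the X and Y boxes. In the uterus, class I molecules on maternal and fetal cells are studied for their contact with natural killer cells.

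Promoter sequence from RefSeq (GRCm38.p6) was found for 8 of the 10 members, and none was used for Tap2 and Nlrc5. The stretches below are shown because they hold elements known from class I promoters, read 5′ to 3′ on the strand of each gene, with matches in capitals. H2-K1 and H2-D1 share a kappa B match (GGG, any base, ATT, any base, CC), an X2 box match (TGACG) and a reversed Y box match (CCAAT on the other strand, printed as ATTGG). B2m has the same X2 and Y box pair after an interferon-stimulated response element core (GAAA, any 2 bases, GAAA).
H2-K1, chr17:34000348-34000468, minus strand: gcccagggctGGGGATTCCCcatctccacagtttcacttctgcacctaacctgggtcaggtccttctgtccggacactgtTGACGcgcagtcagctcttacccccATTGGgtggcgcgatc
H2-D1, chr17:35262913-35262942, plus strand: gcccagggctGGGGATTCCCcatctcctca
H2-D1, chr17:35262993-35263022, plus strand: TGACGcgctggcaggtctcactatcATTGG
B2m, chr2:122147542-122147646, plus strand: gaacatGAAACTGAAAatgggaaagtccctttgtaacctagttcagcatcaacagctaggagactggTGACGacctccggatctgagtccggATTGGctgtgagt
Tap1, chr17:34187462-34187486, plus strand: gagacaggTGACGacagagggtcct
Psmb8, chr17:34198090-34198114, plus strand: ctccgctgTTCCCAGAAgatgcccc

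In the Tap1 stretch the capitals mark an X2 box match, and in the Psmb8 stretch a gamma-activated site match (TTCNNNGAA). From the start of the kappa B match to the end of the Y box match, H2-K1 and H2-D1 had the same base at 89 of 100 positions when laid side by side without gaps. In these 2 genes and in B2m the Y box match began 25 bases after the X2 box match. That pair at that distance was found, on either strand, in 31 of 32851 RefSeq promoter windows (0.0944%), each window running from 250 bases before to 50 after a start site. With a kappa B match 70 bases before the X2 match as well, on the gene's strand, it was found in 3 windows (0.00913%), 2 at start sites of H2-K1 and 1 at H2-D1. Both arrangements were chosen after the sequences had been seen. Single motifs were common: 37.4% of windows held a Y box match on either strand, 20.8% an X2 box, 8.3% a gamma-activated site, 3.44% an interferon-stimulated response element core and 0.715% a kappa B match. Tap1 and Psmb9 are transcribed away from each other from start sites 226 bases apart, and their windows share 275 bases. The Psmb10 window held none of the 5 motifs, which says only that these letters are not in it.

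**Figure D1:**
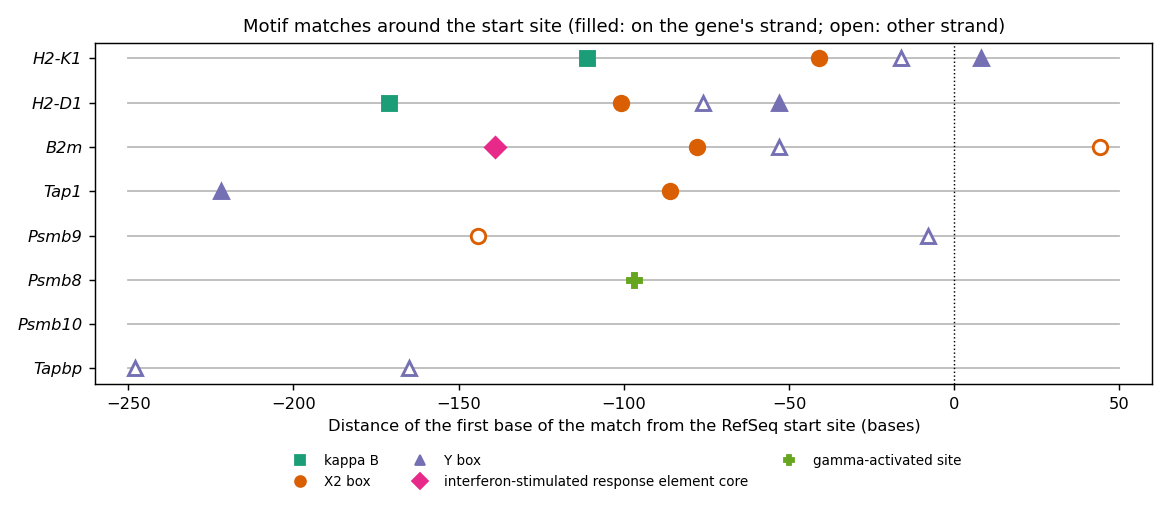
Matches to 5 motifs in the RefSeq promoter windows of 8 members, by distance in bases from the start site; filled symbols lie on the gene's strand and open symbols on the other. H2-K1, H2-D1 and B2m show an X2 box match followed 25 bases later by a reversed Y box match, and Psmb10 shows no match.

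All 10 members had higher transcript levels in Pbrm1 cKO than in WT cells, by 1.44-fold (Psmb10) to 2.98-fold (Psmb9), and all 10 passed the test (adjusted p at most 0.011, DESeq2). For every member, each Pbrm1 cKO library lay above each WT library. Among all 17474 genes tested, 31.1% passed the same threshold, 15.9% as higher and 15.2% as lower in Pbrm1 cKO, and 48.6% did not overlap between the groups. The median log2 fold change (Pbrm1 cKO over WT) of the members was 0.99, against -0.00074 over all tested genes. Changes past the threshold were thus common in this comparison, in both directions. Summed leukocyte markers, given in full after the pathway genes, were 3.98 times as high in Pbrm1 cKO as in WT, and their part in the members' rise was not tested. In bulk samples fewer cells of a type and less RNA per cell cannot be told apart. The deleted gene, Pbrm1, was at 1354, 1385 and 1677 normalized counts in WT against 397, 459 and 451 in Pbrm1 cKO.

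**Figure D2:**
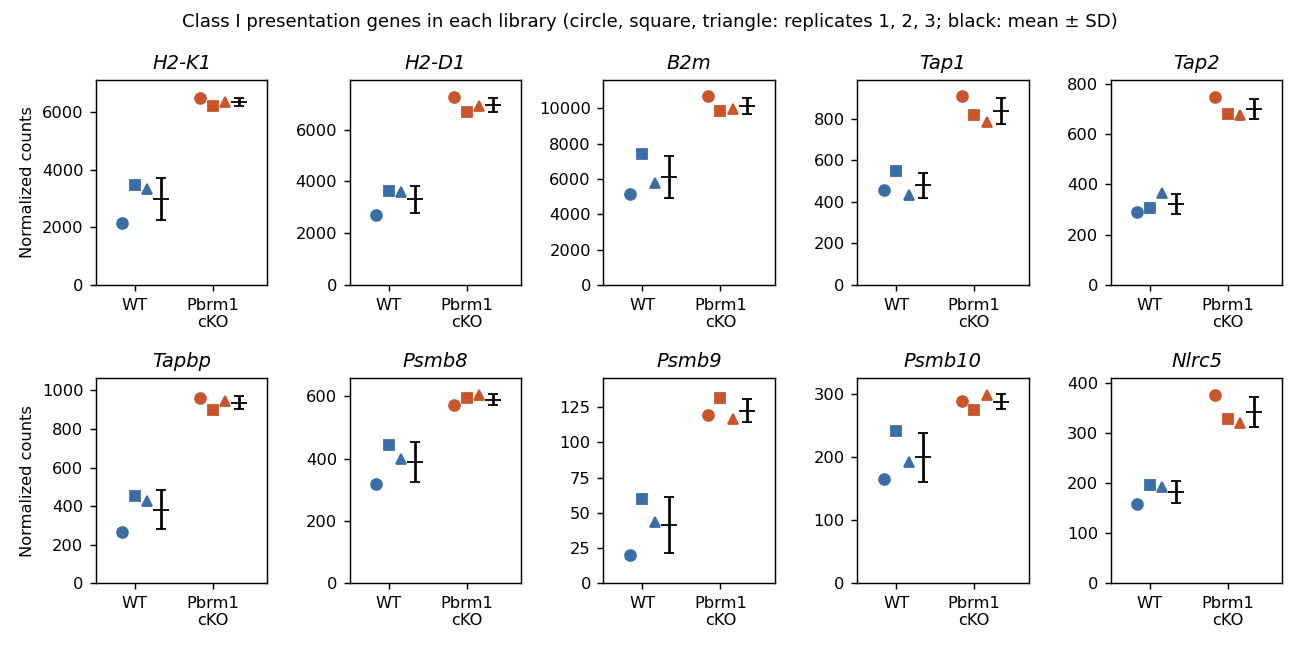
Normalized counts of the 10 members in each library (y axes start at 0), with WT in blue, Pbrm1 cKO in orange, symbols for replicates 1 to 3 and the mean ± SD in black. In every panel the 3 Pbrm1 cKO libraries sit above the 3 WT libraries, and WT replicate 1 is the lowest library for 9 of the 10 genes.

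The classical heavy chains H2-K1 and H2-D1 form the peptide-binding groove and lie on chromosome 17 at either end of the central H2 region. H2-K1 (chromosome 17, 33996017 to 34000333, minus strand, GRCm38) had 2160, 3480 and 3344 normalized counts in WT replicates 1 to 3, against 6502, 6196 and 6350 for the same numbers in Pbrm1 cKO. The Pbrm1 cKO libraries were closely grouped, and WT replicate 1 was the lowest of all. H2-K1 was 2.12-fold higher in Pbrm1 cKO (log2 fold change 1.08 with SE 0.16, DESeq2 adjusted p = 3.87e-10). H2-D1 (chromosome 17, 35262730 to 35267499, plus strand) had 2703, 3644 and 3584 normalized counts in WT against 7247, 6685 and 6898 in Pbrm1 cKO. It was likewise lowest in WT replicate 1, with no overlap between the groups. Its rise was 2.1-fold (log2 fold change 1.07 with SE 0.13, adjusted p = 9.54e-16). Of the distinct 50-base stretches of their transcripts, 9.63% for H2-K1 and 12.8% for H2-D1 also occur in another gene, most often in H2-Q10 for H2-K1 (5.18%) and in H2-Q1 for H2-D1 (5.87%), and reads from those stretches are uncertain.

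B2m (chromosome 2, 122147686 to 122153083, plus strand) encodes β2-microglobulin, the light chain that every class I heavy chain needs to fold and reach the surface. Its normalized counts were 5155, 7422 and 5763 in WT and 10681, 9828 and 9974 in Pbrm1 cKO. WT replicate 2 was the highest WT library and remained below the lowest Pbrm1 cKO library, which was 1.32 times as high. B2m rose 1.66-fold (log2 fold change 0.73 with SE 0.13, adjusted p = 7.39e-07), and none of its 50-base stretches is shared with another gene.

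Tap1 and Tap2 encode the partner chains of the peptide transporter and lie close together on chromosome 17, with Psmb9 and Psmb8 beside them. Tap1 (34187553 to 34197225, plus strand) had 455, 549 and 433 normalized counts in WT against 908, 817 and 786 in Pbrm1 cKO. It was the member whose lowest WT library was not replicate 1 but replicate 3. Tap1 rose 1.75-fold (log2 fold change 0.80 with SE 0.13, adjusted p = 2.39e-08). Tap2 (34203527 to 34216321, plus strand) had 292, 307 and 365 normalized counts in WT against 747, 679 and 676 in Pbrm1 cKO. Every Pbrm1 cKO library held at least 1.85 times the highest WT value. The rise of Tap2 was 2.18-fold (log2 fold change 1.12 with SE 0.13, adjusted p = 1.74e-15).

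Tapbp encodes tapasin, which bridges the transporter and the empty class I molecule. On chromosome 17 (33915899 to 33929288, plus strand), it had 268, 453 and 425 normalized counts in WT against 961, 896 and 946 in Pbrm1 cKO. The gap between its groups was the widest of the 10 members, with the lowest Pbrm1 cKO library 1.98 times the highest WT library. Tapbp rose 2.45-fold (log2 fold change 1.29 with SE 0.18, adjusted p = 1.3e-11). Of its 50-base stretches, 23.2% also occur in another gene, mostly in the predicted gene Gm19412.

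Psmb8, Psmb9 and Psmb10 encode the inducible catalytic subunits of the immunoproteasome, a form of the proteasome whose cuts favour peptides that fit class I molecules. Psmb8 (chromosome 17, 34197721 to 34201454, plus strand) had 320, 445 and 400 normalized counts in WT against 570, 593 and 604 in Pbrm1 cKO. It rose 1.52-fold without overlap (log2 fold change 0.60 with SE 0.15, adjusted p = 0.00025). Psmb9 (chromosome 17, 34181988 to 34187764, minus strand) was the least abundant member per kilobase, with raw counts of 19, 54 and 40 in WT against 121, 165 and 124 in Pbrm1 cKO. Its normalized counts were 20.3, 59.9 and 43.2 in WT and 119, 132 and 116 in Pbrm1 cKO.

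WT replicate 1 held 0.394 times the mean of the other WT libraries for Psmb9, the lowest such ratio among the members. Psmb9 also had the largest fold change of the 10, 2.98-fold (log2 fold change 1.58 with SE 0.33, adjusted p = 1.4e-05), and its log2 fold change was 1.25 without WT replicate 1. Psmb10 (chromosome 8, 105935735 to 105938444, minus strand) had 165, 241 and 192 normalized counts in WT against 289, 275 and 298 in Pbrm1 cKO. Its groups came closest, the lowest Pbrm1 cKO library being 1.14 times the highest WT library. The rise of Psmb10 was 1.44-fold (log2 fold change 0.53 with SE 0.17, adjusted p = 0.011). It lost the threshold without Pbrm1 cKO replicate 1 (adjusted p = 0.066) or without Pbrm1 cKO replicate 3 (adjusted p = 0.073).

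Nlrc5 (chromosome 8, 94434356 to 94527272, plus strand) encodes the transactivator of class I genes. It had 158, 196 and 193 normalized counts in WT against 376, 329 and 320 in Pbrm1 cKO. The WT values lay close to each other and below every Pbrm1 cKO value. Nlrc5 rose 1.87-fold (log2 fold change 0.90 with SE 0.16, adjusted p = 2.67e-07).

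The members differed more in level than in fold change. On the scale of normalized counts per kilobase of exon, B2m had a level of 7109 ± 1365 in WT against 11815 ± 530 in Pbrm1 cKO (SD, with n = 3 in each group). H2-D1 followed at 1284 ± 204 in WT and 2692 ± 110 in Pbrm1 cKO. H2-K1 had 1148 ± 278 in WT and 2435 ± 58.7 in Pbrm1 cKO. On this scale the heavy chain levels overlapped in WT but not in Pbrm1 cKO, where every H2-D1 value was above every H2-K1 value. Next in WT came Psmb8 (142 ± 23.2), Psmb10 (117 ± 22.6), Tapbp (116 ± 30.2), Tap1 (87.5 ± 11.2) and Tap2 (85.0 ± 10.3), and each overlapped its neighbour in this order.

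In Pbrm1 cKO the order of these levels per kilobase was Tapbp (283 ± 10.2), Psmb8 (215 ± 6.33), Tap2 (185 ± 10.6), Psmb10 (169 ± 6.94) and Tap1 (153 ± 11.5), where only Psmb10 and Tap1 overlapped. Tapbp, which overlapped Psmb10 in WT, was above both Psmb8 and Psmb10 in every Pbrm1 cKO library. Nlrc5 (21.5 ± 2.51 in WT, 40.2 ± 3.53 in Pbrm1 cKO) and Psmb9 (11.2 ± 5.44 in WT, 33.5 ± 2.24 in Pbrm1 cKO) were lowest in both groups. The length used is the merged exon length of the count table, which runs over all isoforms of a gene.

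Relative to its mean, every member spread more widely among the libraries of WT than among those of Pbrm1 cKO, although the SD itself was larger in Pbrm1 cKO for Tap1, Tap2 and Nlrc5. The coefficient of variation of the normalized counts ran from 11.6% (Nlrc5) to 48.3% (Psmb9) over the WT libraries and from 2.41% (H2-K1) to 8.77% (Nlrc5) over the Pbrm1 cKO libraries. Without WT replicate 1 all 10 members still passed the test, with log2 fold changes of 0.41 (Psmb10, adjusted p = 0.049) to 1.25 (Psmb9).

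The share of the inducible subunit in each catalytic pair was computed per kilobase within each library, since Psmb8, Psmb9 and Psmb10 take the places of Psmb5, Psmb6 and Psmb7 in the proteasome. Psmb9 made up 0.297%, 0.720% and 0.560% of its pair with Psmb6 in WT and 1.85%, 1.95% and 1.59% in Pbrm1 cKO. All Pbrm1 cKO shares were above all WT shares, and the constitutive subunit was the main form throughout. The difference was 1.27 percentage points (exact two-sided permutation test over libraries, p = 0.1, adjusted over the 3 pairs p = 0.15). With 3 libraries against 3, p = 0.1 is the smallest value that this exact permutation test can give.

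Psmb10 made up 9.84%, 12.5% and 10.6% of its pair with Psmb7 in WT and from 17.4% to 19.5% in Pbrm1 cKO. These groups did not overlap either, with a difference of 7.32 percentage points (exact permutation p = 0.1, adjusted p = 0.15). Psmb7 fell from 3228 ± 187 to 2583 ± 172 normalized counts (a log2 fold change of -0.32 with SE 0.1, adjusted p = 0.0043), a call that was lost without Pbrm1 cKO replicate 1. The share of Psmb8 in its pair with Psmb5 was 17.5%, 23.4% and 12.9% in WT and 20.6%, 22.1% and 20.1% in Pbrm1 cKO. The groups overlapped, and the difference of 3.00 points was within the WT spread (SD 5.24; exact permutation p = 0.5). Psmb5 had 494, 479 and 886 normalized counts in WT, and 54.1% of its 50-base stretches also occur in another gene, mostly in Gm3375. Psmb6 had 3879 ± 376 normalized counts in WT and 3437 ± 222 in Pbrm1 cKO, which did not pass the test (adjusted p = 0.22).

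**Figure D3:**
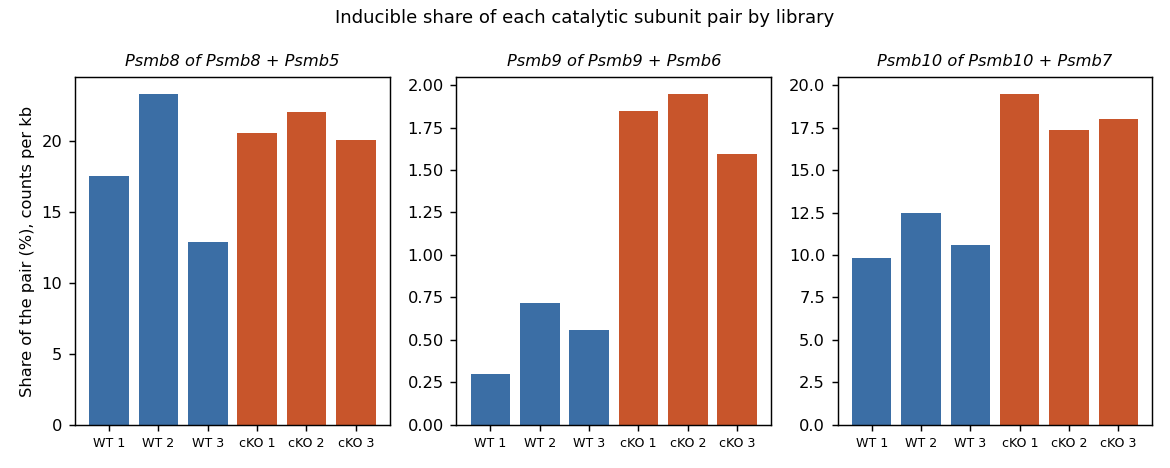
Share of the inducible subunit in each of 3 catalytic pairs, in percent of the pair's counts per kilobase (bars from 0, 1 bar per library, WT blue, Pbrm1 cKO orange; each panel has its own scale). The Psmb9 and Psmb10 shares do not overlap between the groups, whereas the Psmb8 shares do.

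Among the other class I heavy chain genes, 12 of the 21 in the table were tested, with a median log2 fold change of 1.15. Of these 12, 9 rose (75%, against 15.9% of all tested genes), 1 fell and 2 did not pass the test. Of the other 9, 8 had at most 10 counts in every library, and DESeq2 gave H2-Q2 no p-value, as it does for a gene with an outlying count. H2-Q7 (a Qa-2 antigen gene) had 39.5, 82.1 and 123 normalized counts in WT against 416, 382 and 411 in Pbrm1 cKO (log2 fold change 2.30 with SE 0.29, adjusted p = 3.75e-14). The neighbouring H2-Q6 rose 4.45-fold, from 129 ± 23.3 to 575 ± 9.13 (adjusted p = 2.65e-40). H2-T24 rose 4.49-fold, from 47.4 ± 24.7 to 212 ± 18.2 (adjusted p = 8.41e-12). H2-T23, which encodes Qa-1, rose 2.01-fold, from 410 ± 115 to 823 ± 46.1 (adjusted p = 1.42e-06), and is named after its values were seen. Copies in this family share sequence, 35.0% of the 50-base stretches of H2-Q6 and 26.5% of those of H2-Q7 occurring elsewhere, so their separate values are uncertain.

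H2-Q10, also named after its values were seen, was the gene that fell, from 75.9, 30.0 and 31.3 normalized counts in WT to 8.88, 2.40 and 9.38 in Pbrm1 cKO (log2 fold change -2.76 with SE 0.59, adjusted p = 2.78e-05). It encodes a mainly secreted class I protein made in liver. Of 7 class I-like genes outside the H2 region, 5 were tested, of which 2 fell, 1 rose and 2 did not pass the test. The share that rose was 20%, against 15.9% of all tested genes, of which 15.2% fell. Mr1, which presents vitamin B metabolites, fell from 439 ± 34.5 to 234 ± 16.1 normalized counts (a log2 fold change of -0.91 with SE 0.14, adjusted p = 1.55e-09). Fcgrt, the neonatal Fc receptor, fell from 295 ± 28.7 to 164 ± 7.24 (log2 fold change -0.85 with SE 0.16, adjusted p = 1.1e-06). Procr, the endothelial protein C receptor, rose from 788 ± 150 to 1057 ± 57.0 (log2 fold change 0.42 with SE 0.15, adjusted p = 0.017), a call that was lost without any 1 of the Pbrm1 cKO libraries. Both Mr1 and Fcgrt proteins also pair with β2-microglobulin.

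Other genes of the H2 region were counted because 7 of the 10 members lie on chromosome 17. Between the start of H2-K1 and the end of H2-D1, a stretch of 1271483 bases, 55 of 79 other protein-coding genes were tested, and 17 rose and 3 fell. The 17 are 30.9% of those tested, against 15.9% of all genes, and 12 of 49 (24.5%) rose once H2 genes were set aside. The 3 of the 17 with the largest fold changes were the class II genes H2-Aa, H2-Eb1 and H2-Ab1 (log2 fold changes 3.13, 2.96 and 2.90). Among the 12 they were Ltb, Aif1 and Lst1 (2.69, 2.07 and 2.03). The part of leukocytes in these counts was not tested. Members outside this stretch (B2m on chromosome 2, Nlrc5 and Psmb10 on chromosome 8, and Tapbp just before it on chromosome 17) also rose, as given above.

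Of 10 genes of general loading and trimming 3 fell, 1 rose (10.0%, against 15.9% of all tested genes) and 6 did not pass the test. Among all tested genes 15.2% fell. Calr, encoding the chaperone calreticulin of the peptide-loading complex, fell from 28828 ± 495 to 16076 ± 400 normalized counts (a log2 fold change of -0.84 with SE 0.072, adjusted p = 8.2e-30). Hspa5, the endoplasmic reticulum chaperone BiP, and Sec61b, a subunit of the translocon, had log2 fold changes of -0.73 and -0.85 (adjusted p = 1.34e-10 and 1.19e-09). Ganab, a glucosidase that trims N-glycans and was named as the only gene of this group that rose, had a log2 fold change of 0.46 (adjusted p = 0.00033), and 2 genes of the group rose without WT replicate 3.

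Of 16 other proteasome core and assembly genes 6 fell and none rose, where 15.2% of all tested genes fell and 15.9% rose. The lowest log2 fold changes were those of Psmb3 (-0.38), Psmb4 (-0.37) and Psma2 (-0.35), which passed the test. Of 22 genes for proteasome caps and regulators 7 fell, 1 rose (Psme3, log2 fold change 0.28) and 14 did not pass the test. Without WT replicate 3, 5 of these cap genes rose, without Pbrm1 cKO replicate 1 or 2 none did, and without Pbrm1 cKO replicate 2 only 4 fell. Psme1 and Psme2, the interferon-inducible subunits of the PA28 activator, had log2 fold changes of 0.30 and 0.28 and missed the threshold (adjusted p = 0.064 and 0.19).

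**Figure D4:**
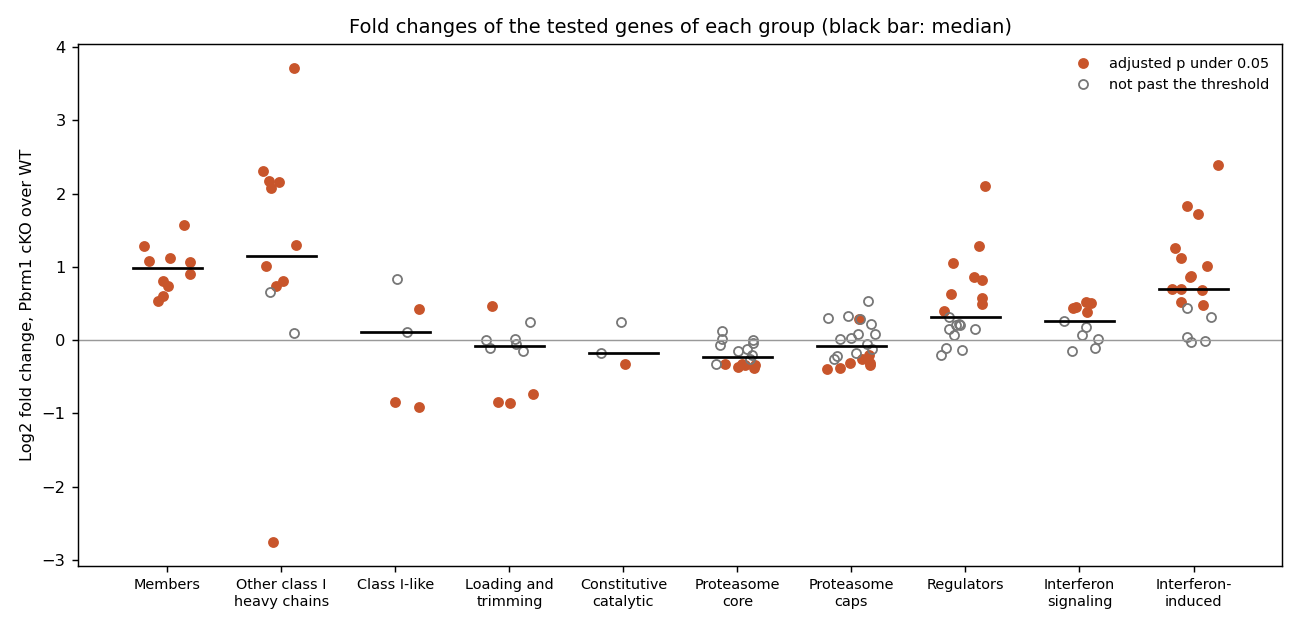
Log2 fold change (Pbrm1 cKO over WT) of each tested gene by group, filled where the adjusted p is under 0.05 and open otherwise, with the median as a black bar. All 10 members lie above 0 (0.53 to 1.58), whereas the medians of the loading, constitutive catalytic, proteasome core and proteasome cap groups lie below 0.

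Of 19 regulators of class I genes 9 rose (47.4%, against 15.9% of all tested genes), none fell and 10 did not pass the test. Their median log2 fold change was 0.31. Irf8 and Irf7, interferon regulatory factors, rose from 142 ± 51.8 to 347 ± 4.89 and from 959 ± 185 to 1990 ± 165 normalized counts (log2 fold changes 1.29 and 1.05, adjusted p = 8.04e-07 and 1.41e-11). Irf2 rose with a log2 fold change of 0.86 (adjusted p = 5.5e-05). Irf1 had 361 ± 72.4 in WT and 419 ± 56.5 in Pbrm1 cKO (adjusted p = 0.4), and Rfx5, of the enhanceosome that NLRC5 joins, had 54.6 ± 7.15 and 57.1 ± 10.6 (adjusted p = 0.9). Ciita, the class II counterpart of Nlrc5, rose from 5.34, 7.77 and 5.40 to 28.6, 24.8 and 26.3 normalized counts (log2 fold change 2.11 with SE 0.55, adjusted p = 0.00086).

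Ifng, the gene for interferon gamma, had no count in 5 libraries and 2 counts in Pbrm1 cKO replicate 2, below the 3 counts that a count of 0 allows. Of 11 tested interferon signaling genes 5 rose (45.5%, against 15.9% of all tested genes) and none fell. Those that rose included the receptor genes Ifnar1 and Ifngr2 (log2 fold changes 0.52 and 0.51) and the kinase gene Tyk2 (0.45). Without Pbrm1 cKO replicate 2, 3 of the signaling genes rose. Of 18 interferon-induced genes 13 rose (72.2%, against 15.9% of all tested genes), none fell and 5 did not pass the test. Their median log2 fold change was 0.70. The largest changes past the threshold were those of Cxcl10 (5.22-fold), Mx1 (3.56-fold) and Rsad2 (3.29-fold). Ifit1 (644, 893 and 606 normalized counts in WT, 767, 670 and 693 in Pbrm1 cKO), chosen after its values were seen, overlapped between the groups.

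Markers of leukocytes moved with the members. All 16 leukocyte markers rose, against 15.9% of all tested genes. Their summed normalized counts ran from 1712 to 3829 in WT and from 11917 to 12482 in Pbrm1 cKO, a ratio of means of 3.98. Ptprc, the pan-leukocyte gene CD45, had 172, 370 and 325 normalized counts in WT against 1138, 1070 and 1105 in Pbrm1 cKO. Of 14 macrophage and dendritic cell markers 11 were tested and all 11 rose, with sums of 3393 to 8032 in WT and 29902 to 31633 in Pbrm1 cKO, a ratio of 4.75. Csf1r, the receptor that macrophages need to survive, rose 6.04-fold, and Itgax (CD11c) rose 14.7-fold. The sum over the 10 members had a ratio of 1.89.

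WT replicate 1 was lower than the other WT libraries in several of these sums. It had 0.461 times their mean in leukocyte markers, 0.428 times in macrophage and dendritic cell markers, 0.575 times in epithelial markers, 0.375 times in endothelial markers and 0.742 times in the sum of the members. The sum of endothelial markers was 1928 in WT replicate 1, against 5490 and 4800 in the other WT libraries and 1886 to 2074 in Pbrm1 cKO. Of 12 endothelial markers 4 fell, 1 rose (8.33%, against 15.9% of all tested genes) and 7 did not pass the test. Among all tested genes 15.2% fell.

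Markers of the lymphocytes that read class I molecules were mostly near the floor. Of 16 T and natural killer cell markers 11 had at most 10 counts in every library. The 4 with no count in any WT library, Cd8a, Gzma, Ncr1 and Tbx21, had 0 to 4 raw counts in each Pbrm1 cKO library. Of the 8 tested, 2 rose (25%, against 15.9% of all tested genes), none fell and 6 did not pass the test. The sum over the list was 82.1 to 89.7 normalized counts in WT and 127 to 146 in Pbrm1 cKO, and Lck alone held 65.8 ± 8.94 of it in WT and 61.4 ± 8.52 in Pbrm1 cKO. Cd3g (2.16 ± 1.05 against 28.3 ± 3.65 normalized counts) and Zap70 (0.717 ± 0.621 against 9.44 ± 2.07) passed the test as higher, and both are named after their values were seen. Only 1 marker of this list was called higher by edgeR's quasi-likelihood test, by limma voom, without WT replicate 2 or without any 1 of the Pbrm1 cKO libraries. B cell markers summed to 9.62 to 15.5 in WT and 17.8 to 30.0 in Pbrm1 cKO, and neutrophil and mast cell markers to 21.4 to 32.2 and 158 to 171. Stromal markers had high counts in both groups, with a lower sum in Pbrm1 cKO. Vim had 33864 ± 2669 normalized counts in WT and 28137 ± 941 in Pbrm1 cKO. The summed stromal markers ran from 113227 to 130594 in WT and from 87598 to 94118 in Pbrm1 cKO. Of the 14 stromal markers 7 fell, including Col3a1 (log2 fold change -2.17) and Thy1 (-1.21), and 1 rose (7.14%, against 15.9% of all tested genes). Among all tested genes 15.2% fell. None rose without WT replicate 2 or without Pbrm1 cKO replicate 1 or 2, whereas 2 did without WT replicate 1. Of 10 smooth muscle markers 4 fell and none rose, with sums of 56742 to 61717 in WT and 53921 to 55943 in Pbrm1 cKO. Of 13 tested epithelial markers 4 rose (30.8%, against 15.9% of all tested genes), none fell and 9 did not pass the test. Those that rose included the keratin gene Krt19 (2.6-fold) and Cdh1, which encodes E-cadherin (2.2-fold). Without Pbrm1 cKO replicate 1 or 2, 2 epithelial markers rose, and without WT replicate 1, 1 fell. Their sum was 1945 in WT replicate 1, 3449 and 3323 in the other WT libraries and 3578 to 3726 in Pbrm1 cKO, and their part in the members' rise was not tested.

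**Figure D5:**
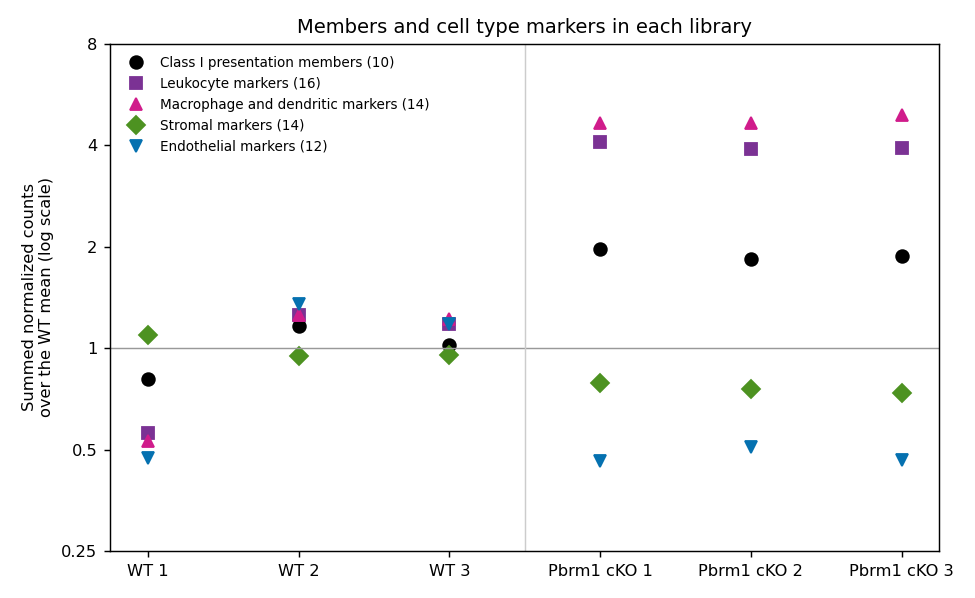
Summed normalized counts of the 10 members and of 4 marker lists in each library, divided by the mean of the WT libraries (log scale, 1 symbol per list). In Pbrm1 cKO the leukocyte and macrophage markers stand above the members (ratios of means 3.98 and 4.75 against 1.89), and WT replicate 1 is below the other WT libraries for all lists shown except stromal markers.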

How the data were processed

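Raw counts per gene were used as deposited, with replicates kept apart. Per the labels and the study's methods, the authors used cutadapt for trimming and HISAT2 for mapping of single-end reads to GRCm38, and counted them on the reverse strand with featureCounts 1.6.4 over GENCODE release 18. The labels describe a total RNA kit and the study poly(A) selection, so which RNA classes were captured is not settled. featureCounts leaves out multimapping reads by default. Total counts were 13253575 to 18338667 per library, and a count of 0 allows 3 counts (0.164 to 0.226 CPM), counting error only.

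Groups were compared with DESeq2 1.42.0 in R 4.3.3 (median-of-ratios scaling, Wald test, no covariate, Benjamini-Hochberg over all genes, threshold 0.05), after a test on simulated data. Adjusted p-values are DESeq2's, log2 fold changes are unshrunken, and folds of single genes are those log2 fold changes taken off the log scale. For summed lists, ratios are between the group means of the summed normalized counts. Symbols came from GENCODE release 21 (99.7% of genes). Shares of catalytic pairs were compared with an exact permutation test. Pathway lists followed other class I, class I-like, loading, proteasome, regulator and interferon genes, and marker lists the cell types given above. The members and lists were chosen with earlier results of these data known. Named genes were the members, Pbrm1, 9 genes set by name, and at most 3 called genes per pathway list (2 per marker list beside Ptprc and Vim) with the largest change and a mean of at least 50. Alternatives were edgeR 4.0.16, limma 3.58.1 voom, TMM factors, other filters and thresholds, a length correction, a replicate block and leaving out each library.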

Additional observations from a re-analysis of the deposited data

How the results depend on the processing

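Under 15 alternatives no member changed direction. Between 9 and 10 members were called higher when each library was left out in turn, and 5 were when DESeq2 tested for a log2 fold change beyond 0.58 in size (adjusted p under 0.1); B2m (adjusted p = 1), Tap1 (0.81), Psmb8 (1), Psmb10 (1) and Nlrc5 (0.48) were then not called. That test also called 3 class I regulators, 4 interferon-induced genes and 0 interferon signaling genes higher, against 9, 13 and 5, and it called 0 class I-like, 1 loading, 0 proteasome core and 0 proteasome cap genes lower, against 2, 3, 6 and 7. Replicate numbers did not pair the samples (correlations of same-numbered deviations 0.114, -0.052 and 0.0028); with the replicate block 9 members were called higher, Psmb10 being lost (adjusted p = 0.0503), and calls over all genes went from 2774 higher and 2658 lower to 2175 and 1828. The difference in the Psmb8 share was 5.12 percentage points, that in the Psmb9 share 2.43 and that in the Psmb10 share 4.25 when counts were not divided by length. Leaving out 1 library gave 0.49 (without WT replicate 3) to 5.72 points (without WT replicate 2) for the Psmb8 share. Without WT replicate 2, 2 other class I heavy chain genes were called lower, against 1 without any other library, and 10 endothelial markers were called lower without WT replicate 1, against 4 with all libraries, 1 without any other library and 2 with the replicate block. The replicate block also left 3 interferon signaling genes, 1 T and natural killer cell marker and 0 proteasome cap genes called higher, against 5, 2 and 1. The cause of these shifts was not tested. With 3 libraries per group the permutation test of shares cannot pass 0.05, and H2-Q, H2-T and Psmb5 counts are limited by shared sequence.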

Other observations

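WT replicate 1 stood apart from the other WT libraries in several class I genes of low count. H2-Q2 had 101 raw counts in WT replicate 1, 1 and 4 in the other WT libraries and 5, 6 and 9 in Pbrm1 cKO. H2-K2 had 17 raw counts in WT replicate 1, 5 and 3 in the other WT libraries and 11, 11 and 10 in Pbrm1 cKO. H2-M2 had 9, 0 and 1 raw counts in WT against 48, 59 and 51 in Pbrm1 cKO, and passed the test (log2 fold change 3.72, SE 0.66, DESeq2 adjusted p = 2.11e-07). These genes were chosen after their values were seen.

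WT replicate 3 stood apart in a few genes of the proteasome and of peptide loading. Psmc2, an ATPase of the proteasome cap, had 1392, 1300 and 2860 normalized counts in WT against 2617, 2777 and 2614 in Pbrm1 cKO. Psmd7, a lid subunit, had 1369, 1318 and 2516 in WT against 2214, 2300 and 2045 in Pbrm1 cKO. Pdia3, the disulfide isomerase of the peptide-loading complex, had 5632, 6277 and 11969 in WT against 7204, 7307 and 6997 in Pbrm1 cKO. None of these 3 genes passed the test, and all were chosen after their values were seen.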
